A study of Mus musculus with 9 samples.

Results

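The genes described here encode the proteins of the cytosolic ribosome, the particle that translates messenger RNA in the cytoplasm. They were taken from the arrays by name: every probe whose RefSeq accession maps to a symbol of Rpl or Rps and a digit, or to Rplp0, Rplp1, Rplp2 or Rpsa, with the S6 kinases and pseudogene names left out. The rule found 84 of the 16358 named genes, on 121 probes. Of these, 51 encode proteins of the large 60S subunit and 32 proteins of the small 40S subunit. The remaining gene, Rps19bp1, encodes a protein that binds Rps19 and is not itself part of the ribosome. For a gene with several probes the brightest was used.

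The ribosome is built in the nucleolus from ribosomal RNA and 1 copy each of most ribosomal proteins, so their genes are usually regulated as a block. Their messenger RNAs begin with a tract of pyrimidines (the TOP motif), through which the growth-controlling kinase mTOR and the RNA-binding protein Larp1 regulate their translation and stability according to the supply of nutrients. In brain, ribosomal protein messenger RNAs are among the most abundant, in cell bodies and also in the processes of neurons and glia.

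Messenger RNA came from the amygdala, the hypothalamus and the prefrontal cortex of male wild-type C57BL/6J mice aged 8 to 9 weeks, which had fed freely (AD), had alternated days of fasting with days of refeeding (RFR), or had been given a restricted ration set from what the RFR mice ate (CR). Tissue was taken on day 8 after perfusion and slicing of the brain, and equal amounts of RNA from 4 mice were pooled per group and region. The labels do not say whether the RFR mice were fasting or refeeding at that time. Every region and diet had 1 single-colour (Cy3) Agilent whole mouse genome array of its own, made from 400 ng of RNA, which gives 9 arrays and no replicate within a region and diet. The number of arrays limits the precision.

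Per array, 25958 to 30199 of 43379 noncontrol spots stood well above background. Among repeated spots of the same probe on an array the log2 signal had a median SD of 0.051 to 0.076. The 3 AD arrays and that of RFR prefrontal cortex lay on slide 1, those of RFR amygdala, RFR hypothalamus, CR hypothalamus and CR prefrontal cortex on slide 2, and that of CR amygdala alone on slide 3, so for CR amygdala slide and diet cannot be told apart. The tissue labels were borne out by the hypothalamic peptide genes Hcrt and Pmch, which lay at 5.61 to 7.19 on the log2 scale in hypothalamus and at most -0.88 elsewhere, and by Neurod6, a gene of excitatory forebrain neurons, at 1.07 to 1.23 in prefrontal cortex and at most -6.69 in hypothalamus. All levels are log2 processed signals from which each array's 75th percentile was subtracted, so that 0 is the signal at that percentile and 1 unit is a factor of 2.

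Of the 84 genes, 80 were well above background on all 9 arrays and none was saturated. Rpl36 and Rps13 lacked a value on the RFR prefrontal cortex array, where their spots were outliers. Rpl3l, a paralog of Rpl3 known from heart and skeletal muscle, was well above background on 7 of 9 arrays. Rpl39l, a paralog of Rpl39 known from testis, was well above background on 1 array only, that of CR amygdala, and was not tested. The other 83 genes passed the filter of 3 arrays well above background. Ribosomal protein genes have many processed pseudogenes, and a probe that matches such a copy cannot be told apart here from one that reads the gene alone.

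The sequences around the annotated transcription starts were searched for stretches of pyrimidines, of which the TOP motif is made. RefSeq windows were at hand for 64 of the 84 genes (76 windows, build GRCm38.p6, 250 bases before to 50 after the start). Printed below are 30 bases, 15 before and 15 after the start, of genes on which the results turn, with the 5′ to 3′ strand of the gene. Capitals mark the longest stretch that begins with C and holds only C or T over at least 7 bases. It was accepted anywhere in the 30 bases, so a marked stretch need not be a TOP motif. That of Rps27l lies wholly before the annotated start and that of Rpl22l1 begins after it.
Rpl22l1 (chr3:28805493-28805522, plus strand): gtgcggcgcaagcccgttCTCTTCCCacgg
Rpl22 (chr4:152325711-152325740, plus strand): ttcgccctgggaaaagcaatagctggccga
Rps27l (chr9:66946071-66946100, plus strand): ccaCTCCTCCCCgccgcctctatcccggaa
Rps27 (chr3:90213634-90213663, minus strand): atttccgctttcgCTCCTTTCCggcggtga
Rpl14 (chr9:120571502-120571531, plus strand): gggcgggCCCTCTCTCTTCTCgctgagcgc
Rps6 (chr4:86857353-86857382, minus strand): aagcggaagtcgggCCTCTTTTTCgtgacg
Rpl10 (chrX:74270801-74270830, plus strand): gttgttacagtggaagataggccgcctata
Rpsa (chr9:120127751-120127780, plus strand): gtgggttatttaaggacgtcatttccggcc

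Such a stretch, searched on the strand of the gene, was found in 43.4% of the 76 ribosomal protein windows and in 14.2% of the 32851 windows of all genes. Rpl14 had the longest of those printed, 14 bases. In Rpl22, Rpl10 and Rpsa none lay within these 30 bases, which says only that the letters are not in this window. The motif CCGGAAG, which holds the core that ETS transcription factors bind, was searched on both strands of the full 300 bases. It was present in 35.5% of ribosomal protein windows and in 8.86% of all windows. Its reverse complement holds 5 pyrimidines in a row and can overlap a stretch of the first kind. Of the windows printed, those of Rps27l, Rps6 and Rpsa held it.

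Across the 9 arrays the ribosomal protein genes moved within a narrow range. The SD of log2 level over the 9 arrays had a median of 0.23 among the 80 genes with all values well above background (0.098 to 0.43), against 0.28 over 11231 genes measured in the same way. The steadiest were Rps20 (SD 0.098), Rps7 (0.10), Rplp0 (0.14), Rps14 (0.14) and Rpl28 (0.14). The widest SDs were those of the dim paralogs Rpl39l (0.65) and Rpl3l (0.56), followed by Rpl22l1 (0.43), Rpl36al (0.43) and Rpl10 (0.42). A few genes thus spanned more than 2-fold: Rpl22l1 ran from 4.30 in AD prefrontal cortex to 5.75 in CR hypothalamus.

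Each gene was set against its own mean over the 9 arrays. On every array most of the 80 genes lay on the same side of their means. The median deviation was 0.30 in CR hypothalamus, 0.22 in AD hypothalamus, 0.12 in AD amygdala and 0.06 in RFR hypothalamus. It was -0.06 in RFR amygdala, -0.07 in CR prefrontal cortex, -0.14 in RFR prefrontal cortex, -0.20 in AD prefrontal cortex and -0.24 in CR amygdala. Over 11231 genes measured in the same way the median deviation had the same sign on every array but was smaller. It ran from -0.07 in CR amygdala to 0.06 in AD hypothalamus. Of the 80 genes, 45 had their highest level in CR hypothalamus and 24 in AD hypothalamus, while 42 had their lowest in CR amygdala and 20 in AD prefrontal cortex. The same counts were not made over all genes. Under quantile scaling CR amygdala no longer had the lowest median deviation (-0.08), which was that of AD prefrontal cortex (-0.24). RFR hypothalamus (0.17) then lay above AD hypothalamus (0.12), and AD amygdala fell to 0.03.

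**Figure D1:**
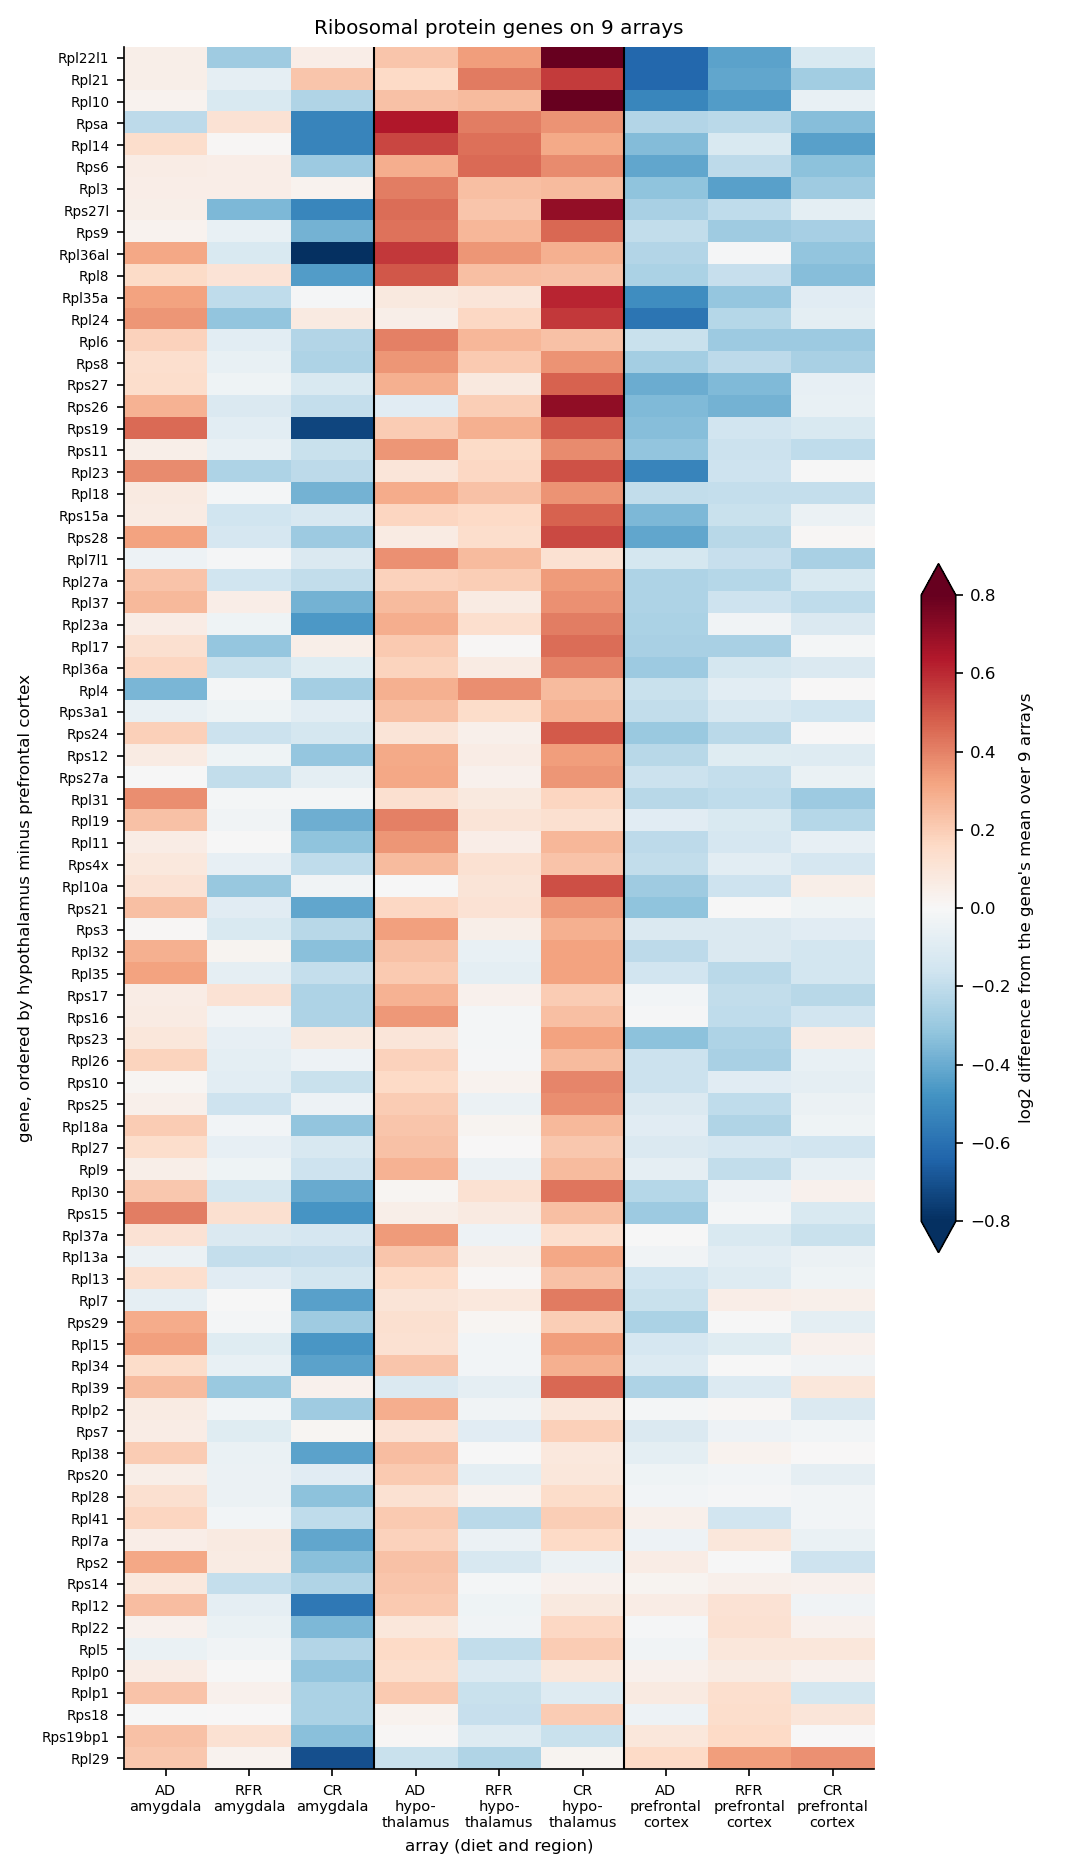
Heat map of 79 of the 80 ribosomal protein genes well above background on all 9 arrays. Rows are genes ordered by their difference between hypothalamus and prefrontal cortex, columns are arrays by region and diet, and colour is the log2 difference from the gene's own mean over the arrays. The hypothalamus columns are mostly above the gene means and the prefrontal cortex columns mostly below them, and CR amygdala holds the lowest level of 42 of the 80 genes.

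The first comparison asked how the regions differ, with the 3 diets serving as 3 arrays of a region. Ribosomal protein genes were higher in hypothalamus than in prefrontal cortex. The median difference over the 83 tested genes was 0.33 log2 units, against 0.06 over all 12619 tested genes. A positive difference was seen in 77 of the 83 genes, against 54.2% of all genes. In the limma fit with Benjamini-Hochberg adjustment over all genes at 0.05, 31 of 83 were higher in hypothalamus and 0 lower (47 in either direction at an unadjusted p under 0.05). Over all genes 26.7% were called higher and 21.3% lower, where the ribosomal protein share was 37.3% higher and 0% lower. In either direction 37.3% of the ribosomal protein genes were called, fewer than the 48.0% of all genes. The 3 arrays of a region come from different diets, so the spread in this test includes any effect of diet that differs between regions. In 55 of the 81 genes with a value on all 6 arrays, all 3 hypothalamus arrays lay above all 3 prefrontal cortex arrays, as in 33.5% of all genes. The reverse order held in 1 gene, Rpl29, and in 26% of all genes. In bulk tissue, more cells of a type and more RNA per cell cannot be told apart.

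Among the genes called higher, those of the large subunit were led by Rpl22l1, the paralog of Rpl22. Rpl22l1 lay at 5.15, 5.27 and 5.75 in AD, RFR and CR hypothalamus and at 4.30, 4.50 and 4.81 in AD, RFR and CR prefrontal cortex. The amygdala arrays, at 4.98, 4.65 and 4.99, fell between the other regions or within the prefrontal cortex range. The difference between hypothalamus and prefrontal cortex was 0.85 ± 0.14 (SE; limma adjusted p = 0.00245), or 1.80-fold. Rpl21, a structural protein of the large subunit, lay at -0.63, -0.37 and -0.23 in AD, RFR and CR hypothalamus, at -1.42, -1.20 and -1.07 in prefrontal cortex and at -0.74, -0.86 and -0.56 in amygdala. The regions hypothalamus and prefrontal cortex did not overlap (difference 0.82 ± 0.11, adjusted p = 0.000791). Rpl10, which joins the large subunit at the last step of its maturation, lay at 4.57, 4.59 and 5.21 in AD, RFR and CR hypothalamus, at 3.81, 3.89 and 4.28 in prefrontal cortex and at 4.37, 4.22 and 4.10 in amygdala. Its difference was 0.80 ± 0.18 (adjusted p = 0.00960), with the CR array the highest in both hypothalamus and prefrontal cortex.

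Rpl14 lay at 1.26, 1.17 and 1.03 in AD, RFR and CR hypothalamus, at 0.38, 0.60 and 0.29 in prefrontal cortex and at 0.86, 0.73 and 0.20 in amygdala. Rpl3, which reaches toward the peptidyl transferase centre where peptide bonds form, lay at 6.21, 6.04 and 6.05 in hypothalamus, at 5.48, 5.37 and 5.52 in prefrontal cortex and at 5.85, 5.85 and 5.83 in amygdala. For Rpl3 the 3 regions formed 3 separate groups of arrays with amygdala in between. The hypothalamus to prefrontal cortex difference was 0.73 ± 0.13 for Rpl14 (limma adjusted p = 0.00401). It was 0.65 ± 0.09 for Rpl3 (adjusted p = 0.00139).

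In the small subunit the largest difference was that of Rpsa, a 40S protein that also serves as a laminin receptor. Rpsa lay at 4.56, 4.33 and 4.28 in AD, RFR and CR hypothalamus, at 3.69, 3.70 and 3.58 in prefrontal cortex and at 3.71, 4.04 and 3.39 in amygdala. Only the hypothalamus arrays stood apart, by 0.73 ± 0.14 from prefrontal cortex (limma adjusted p = 0.00496). Rps6, the 40S protein that the S6 kinases phosphorylate downstream of mTOR, lay at 4.92, 5.08 and 5.001 in hypothalamus, at 4.21, 4.42 and 4.30 in prefrontal cortex and at 4.68, 4.68 and 4.34 in amygdala. Its difference was 0.69 ± 0.12 (adjusted p = 0.00265). In all, 17 of 50 tested 60S genes and 14 of 32 tested 40S genes were called higher, with medians of 0.32 and 0.35.

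**Figure D2:**
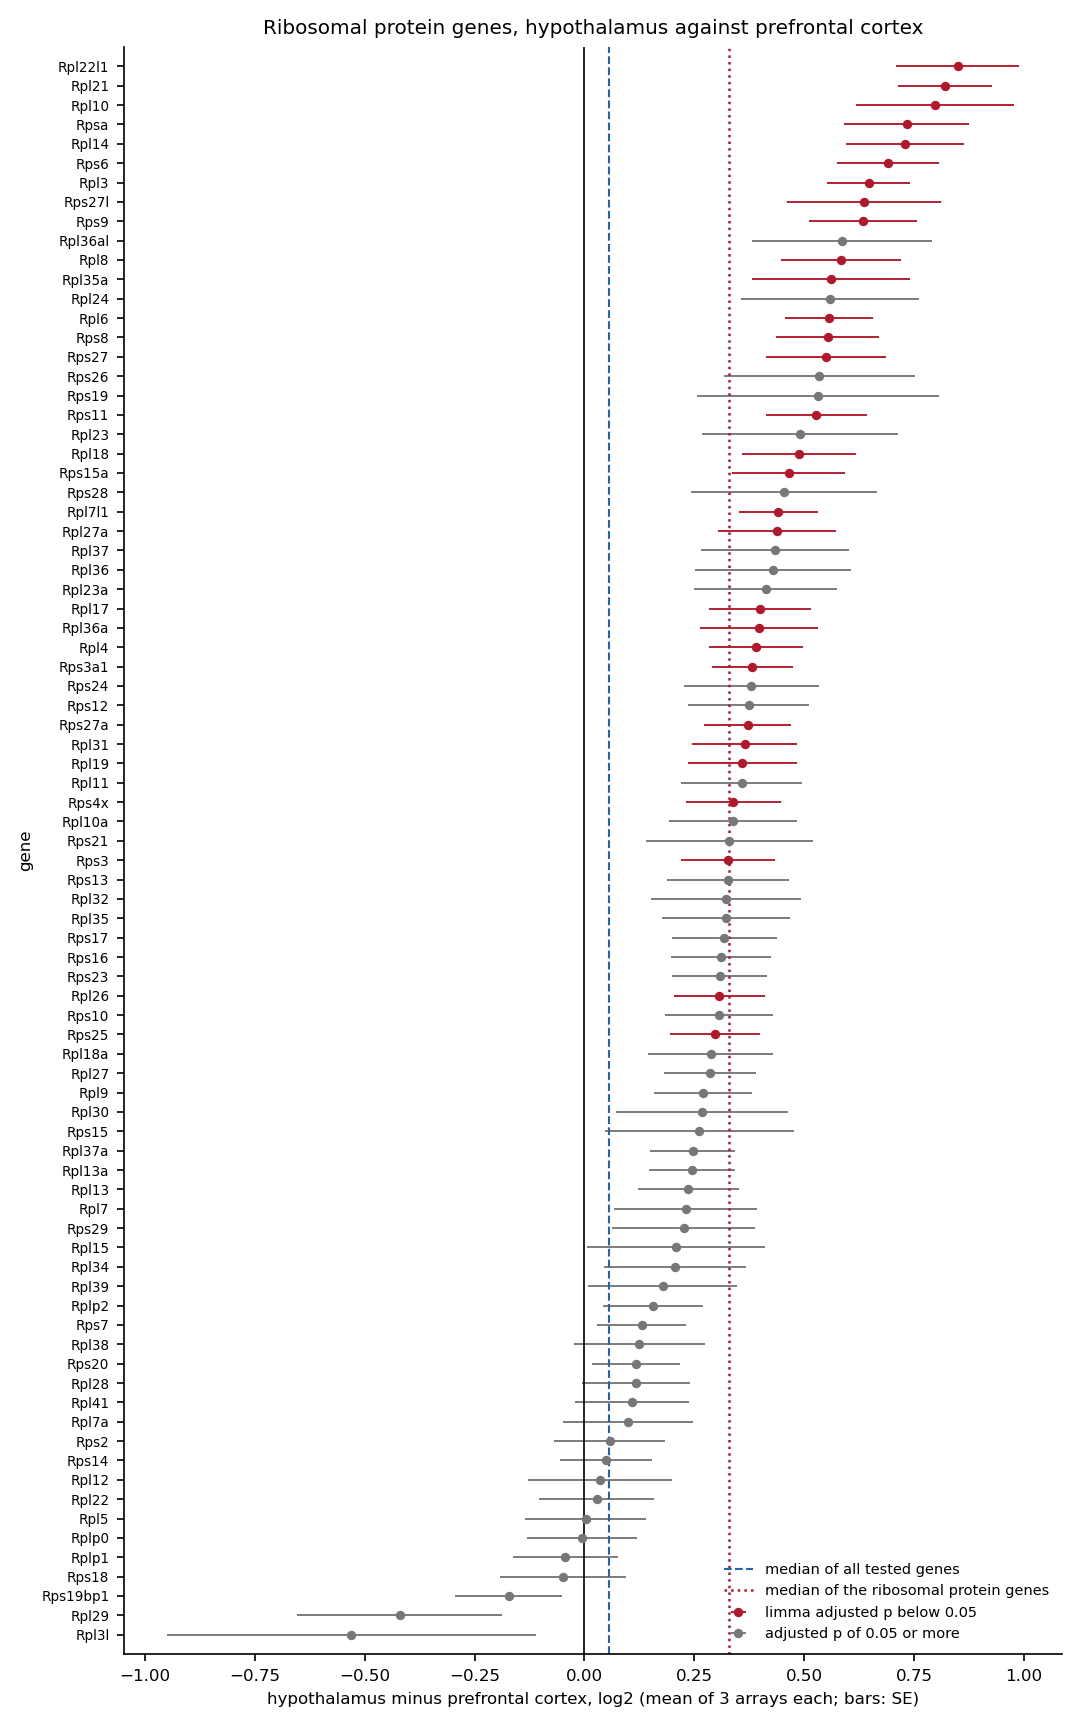
Difference between hypothalamus and prefrontal cortex in log2 units (x axis) for 82 of the 83 tested ribosomal protein genes (y axis), as means of 3 arrays per region with SE bars. Red points are 30 of the 31 genes with a limma adjusted p below 0.05, all of them to the right of 0; the dashed line is the median of all tested genes (0.06) and the dotted line that of the ribosomal protein genes (0.33).

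The genes that did not follow this order included the ribosomal stalk, the flexible arm that recruits elongation factors. Rplp0, its base, lay at 6.97, 6.72 and 6.92 in AD, RFR and CR hypothalamus and at 6.87, 6.90 and 6.87 in prefrontal cortex (difference -0.01 ± 0.13, limma adjusted p = 0.974). Rplp1 lay at 8.08, 7.69 and 7.76 in hypothalamus and at 7.94, 8.00 and 7.73 in prefrontal cortex (-0.04 ± 0.12, adjusted p = 0.786). Rplp2 lay at 7.29, 6.97 and 7.09 in hypothalamus and at 6.98, 7.01 and 6.88 in prefrontal cortex (0.16 ± 0.11, adjusted p = 0.296). For each of the 3 the regions overlapped. Rpl29, a heparin-binding protein of the large subunit, had the opposite order. It lay at 3.70, 3.64 and 3.90 in hypothalamus and at 4.04, 4.21 and 4.24 in prefrontal cortex, with a difference of -0.42 ± 0.23 that did not pass the test (adjusted p = 0.178).

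The slides allowed this difference to be read within batches. With both regions on slide 1, the AD arrays gave a median of 0.41 over 82 genes, 80 of them higher in hypothalamus, against 56.2% of all genes. With both on slide 2, the CR arrays gave 0.41 over 83 genes, 81 higher, against 55.1% of all genes. The RFR arrays, which lie on different slides, gave 0.21 over 80 genes, 63 higher, against 52.5% of all genes. The median was positive in all of the 13 other settings run, from 0.29 to 0.42, and the number called ran from 9 without the RFR pool to 57 under cyclic loess scaling, of which at most 1 was lower. The share of all genes called in those settings was not set beside these counts. Of the 29 genes with 2 or more probes well above background on all 9 arrays, 26 had the same sign on all of them.

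Markers of other cell types also differed between these regions, where 26.7% of all genes were called higher and 21.3% lower. All 11 oligodendrocyte markers were called higher in hypothalamus, by a median of 1.23, and their summed signal was 165 to 219 times the 75th percentile in hypothalamus, 57.5 to 105 in prefrontal cortex and 102 to 147 in amygdala. The astrocyte list had a median of 0.27, with 3 of 9 genes called higher and 1 lower. Neuronal markers, a list that includes genes of excitatory and of inhibitory neurons, had a median of -0.60 (1 of 14 higher, 8 lower). Microglial markers had one of -0.52 (6 of 10 lower), and endothelial and mural markers one of -0.40 (5 of 11 lower). Choroid plexus markers had a median of 1.84 (7 of 9 higher, 1 lower) and meningeal and fibroblast markers one of -1.02 (1 of 10 higher, 5 lower). The part of these differences in the ribosomal protein result was not tested.

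The paralogs and their parent genes did not always share a pattern. Rpl22, the parent of Rpl22l1, lay at 3.88, 3.76 and 3.95 in AD, RFR and CR hypothalamus and at 3.78, 3.91 and 3.82 in prefrontal cortex. These overlapped, and the difference was 0.03 ± 0.13 (limma adjusted p = 0.876) where that of Rpl22l1 was 0.85. A test of the difference between the paralog and its parent was not run. Rps27l, a p53-responsive paralog of Rps27, lay at 2.91, 2.68 and 3.16 in hypothalamus, at 2.20, 2.26 and 2.39 in prefrontal cortex and at 2.51, 2.10 and 1.94 in amygdala. Rps27 itself lay at 6.91, 6.70 and 7.10 in hypothalamus, at 6.23, 6.27 and 6.56 in prefrontal cortex and at 6.76, 6.59 and 6.505 in amygdala. Here parent and paralog were both called higher in hypothalamus than in prefrontal cortex, Rps27l by 0.64 ± 0.18 (adjusted p = 0.0221) and Rps27 by 0.55 ± 0.14 (adjusted p = 0.0146).

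Rpl7l1, a paralog of Rpl7, lay at 1.15, 1.04 and 0.91 in AD, RFR and CR hypothalamus, at 0.65, 0.60 and 0.52 in prefrontal cortex and at 0.75, 0.78 and 0.67 in amygdala. Its 3 regions did not overlap, and it was higher in hypothalamus than in prefrontal cortex by 0.44 ± 0.09 (limma adjusted p = 0.00637). For Rpl7 the same difference was 0.23 ± 0.16 (adjusted p = 0.282). Rpl36al differed by 0.59 ± 0.20 (adjusted p = 0.0511) and its parent Rpl36a by 0.40 ± 0.13 (adjusted p = 0.0458). The muscle paralog Rpl3l lay between -5.04 and -3.50 over the 9 arrays, with a difference of -0.53 ± 0.42 (adjusted p = 0.334). The testis paralog Rpl39l lay between -7.24 and -5.38, not well above background on 8 of the 9 arrays, and its parent Rpl39 had a difference of 0.18 ± 0.17 (adjusted p = 0.419).

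**Figure D3:**
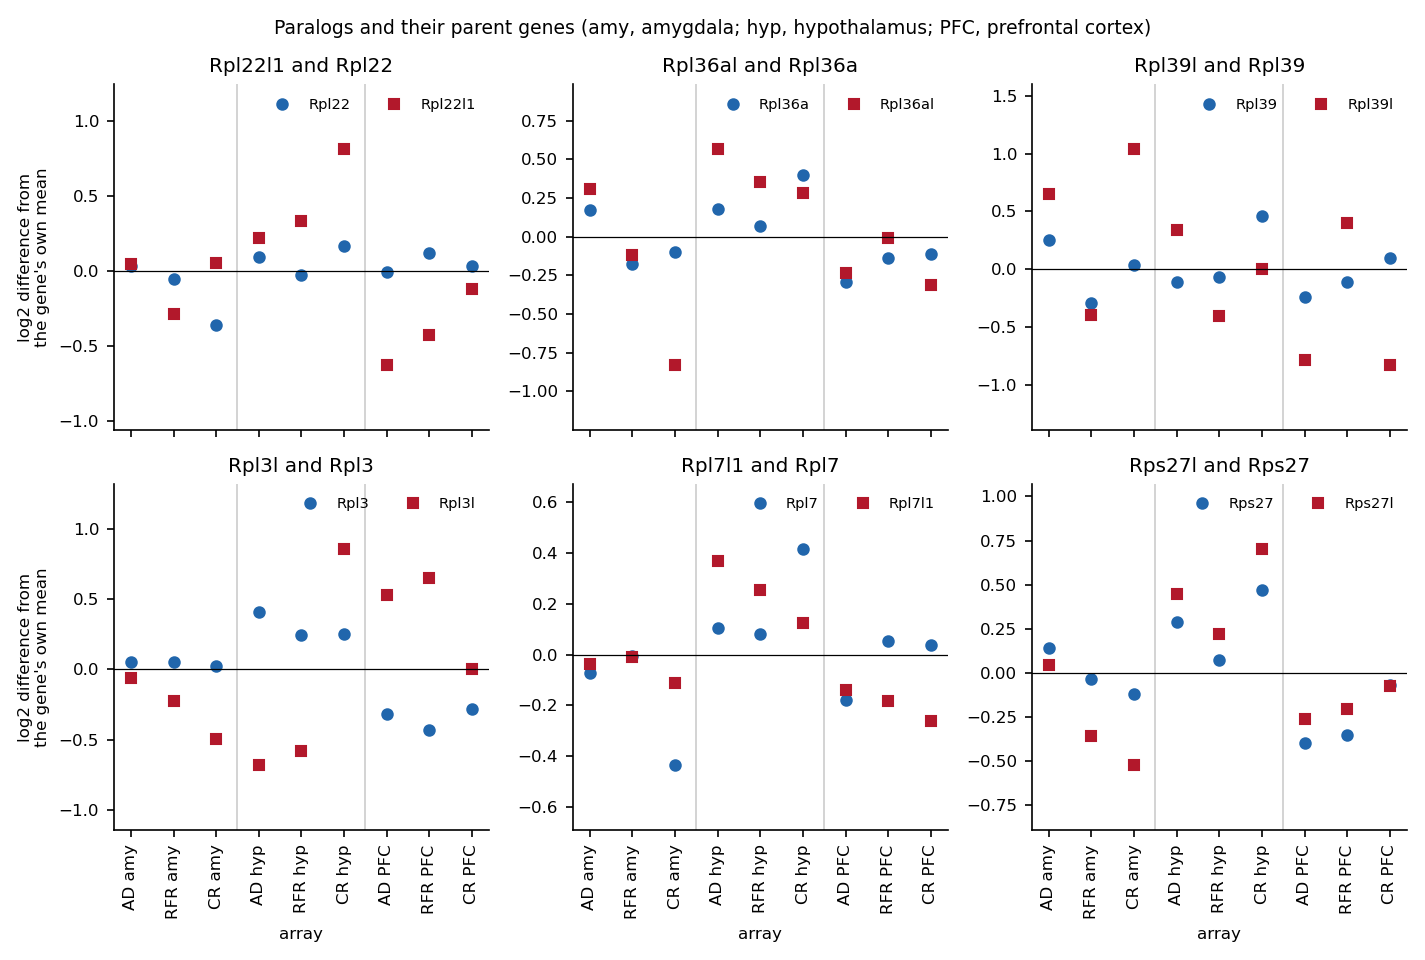
Levels of 6 paralogs (red squares) and their parent genes (blue circles) on the 9 arrays, each as the log2 difference from its own mean (y axis; the scales differ between panels). Rpl22l1 is spread over 1.44 log2 units with the hypothalamus arrays on top, where Rpl22 spans 0.53; Rpl3l was well above background on 7 arrays and Rpl39l on 1, so most of the spread of Rpl39l is not a measured level.

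The amygdala was compared with hypothalamus in the same fit. Of 83 genes, 81 had a lower mean in amygdala, as had 7113 of all 12619 genes. The median difference was -0.26, against -0.06 over all genes. The test called 11 lower and 0 higher, or 13.3%, and 15.9% of all genes were called lower, so the share of ribosomal protein genes called is near the background. All amygdala arrays lay below all hypothalamus arrays in 25 of 83 genes (23.2% of all genes), and above them in 0 (16.8% of all genes). The largest were Rps27l (-0.73 ± 0.18, limma adjusted p = 0.0203), Rpsa (-0.68 ± 0.14, adjusted p = 0.0123), Rpl14 (-0.55 ± 0.13, adjusted p = 0.0213) and Rpl4 (-0.52 ± 0.11, adjusted p = 0.0113). They were followed by Rps9 (-0.52), Rpl22l1 (-0.52), Rps6 (-0.43) and Rpl6 (-0.35). Rpl4, a large subunit protein that lines the exit tunnel of the growing peptide, lay at 3.57, 3.66 and 3.54 in AD, RFR and CR hypothalamus and at 2.92, 3.27 and 3.01 in amygdala.

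Much of this median came from 1 array. The AD arrays, both on slide 1, gave a median of -0.10 (57 of 82 lower, 53.9% of all genes), and the RFR arrays, both on slide 2, gave -0.13 (66 of 82 lower, 54.5% of all genes). The CR arrays, on slides 3 and 2, gave -0.53, with all 83 genes lower in amygdala where 59.2% of all genes were. Without the CR amygdala array the median was -0.11. There 4 of 83 genes were called lower, Rpl4, Rps27l, Rps9 and Rpsa, where 26.2% of all genes were called in either direction. Without the CR pool 0 genes were called by limma (7 at an unadjusted p under 0.05). Without the RFR pool 1 was, Rpsa, where 11.3% of all genes were called in either direction. Between these regions 8 of 11 oligodendrocyte markers were called lower in amygdala (median -0.65) and 6 of 10 meningeal and fibroblast markers higher (median 1.33), and their part in the result was not tested.

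Between amygdala and prefrontal cortex the median was 0.08 and 2 of 83 genes were called higher, against 12.1% of all genes. They were Rpl21 (0.51 ± 0.11, limma adjusted p = 0.0157) and Rpl3 (0.39 ± 0.09, adjusted p = 0.0270). No gene was called lower, against 10.2% of all genes. On slide 1, where both AD arrays lie, 79 of 83 genes were higher in amygdala with a median of 0.31, against 53.9% of all genes. In the CR arrays 62 of 83 were lower with a median of -0.13, against 53.6% of all genes, and in the RFR arrays the median was 0.05. The 2 probes of Rpl37 disagreed in the CR arrays, at -0.17 and 0.88. Over the 3 diets, 21 of the 29 genes with 2 or more probes well above background on all arrays had the same sign on all of them. The sign of the 3-diet median turned without the AD pool (-0.03), and without the CR pool the 1 gene called was Rpl3l, which was lower in amygdala. In 6 genes all amygdala arrays lay above all prefrontal cortex arrays, against 17.5% of all genes, and in 1 below, against 16.6%. Of 12 markers of hypothalamic neurons, 8 were called higher in amygdala than in prefrontal cortex and 1 lower (median 2.23). The part of these markers in the result was not tested.

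The genes that act with the ribosome were read in the same contrast of hypothalamus with prefrontal cortex, where 26.7% of all genes were called higher and 21.3% lower. Of 36 initiation factor genes, 3 were called higher and 2 lower, both below the shares of all genes, with a median of 0.01. They included Eif4b, a cofactor of the helicase that unwinds the 5′ end of messenger RNA, at 0.63 ± 0.11 (limma adjusted p = 0.00354). Pabpc1, the poly(A)-binding protein, was lower (-0.81 ± 0.18, adjusted p = 0.00844), as was the scaffold Eif4g3 (-0.81 ± 0.10, adjusted p = 0.000745). Of 10 elongation and termination factor genes, 3 were called higher and 1 lower (median 0.01). The 3 were Eef1g (0.58), Eef1b2 (0.45) and Eef1d (0.43), subunits of the exchange factor that recharges the elongation factor eEF1A, and the one called lower was Eef1a2 (-0.68 ± 0.12, adjusted p = 0.00282), the eEF1A form of neurons and muscle.

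Genes with a TOP messenger RNA or a place on the ribosome that the name rule left out had a median of 0.19, with 3 of 10 called higher and 0 lower. They included Naca (0.65) and Btf3 (0.55), the subunits of the complex that shields new peptides at the ribosome. Of 38 ribosome biogenesis genes 6 were called higher and 6 lower. Npm1, a nucleolar chaperone, was higher by 0.96 ± 0.13 (limma adjusted p = 0.00104). Nhp2, a component of small nucleolar particles, was lower (-1.11), as were Ubtf (-0.84) and Tcof1 (-0.80), which promote transcription of ribosomal RNA genes. Of 21 genes of the mTOR pathway 2 were called higher and 5 lower, with a median of -0.20. These included Rps6ka3, a kinase that phosphorylates Rps6 (-1.68), Eif4ebp1, a repressor of cap-dependent initiation (-1.33), Mycn (-1.15) and Myc (0.82). The mitochondrial ribosomal protein genes, which build the separate ribosome of that organelle, had a median of 0.10. Of these 76, 11 were called higher and 1 lower, both below the shares of all genes (26.7% and 21.3%). Mrpl52 was the highest (0.63). For the translation factors the values went both ways, while the ribosomal protein genes called were all higher in hypothalamus.

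Diets were compared over the 3 regions with limma. The 3 arrays of a diet come from the same pools of mice, so these p-values are too small. For CR against AD, 0 of 83 genes passed the adjusted threshold (7 at an unadjusted p under 0.05), and 0% of all genes did. For RFR against AD the count was 0 (1 unadjusted), against 0.0158% of all genes, and for CR against RFR it was 0 (4 unadjusted), against 0.0158%. The medians were -0.09, -0.09 and 0.02. The sign of the CR to AD median turned under quantile scaling (0.03), under cyclic loess scaling (0.02), in the authors' deposited table (0.02) and without the CR amygdala array (0.05), and with slide as a term (0.28). That of RFR against AD turned with slide as a term (0.06), and that of CR against RFR without the hypothalamus (-0.08). CR with AD and RFR with AD share the AD arrays.

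The average over regions joined differences of opposite sign. Without the amygdala, 4 genes were called higher in CR than in AD, against 5.21% of all genes, and they were named after their values were seen. They were Rpl22l1 (0.55 ± 0.08, limma adjusted p = 0.0432), Rpl10 (0.55 ± 0.09, adjusted p = 0.0464), Rps28 (0.44 ± 0.08, adjusted p = 0.0486) and Rpl21 (0.37 ± 0.07, adjusted p = 0.0491). Outside the amygdala the CR arrays share slide 2 and the AD arrays share slide 1, so diet and slide cannot be told apart.

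Within a region each diet has 1 array, so the differences below carry no test. In amygdala the ribosomal protein genes were lower in CR than in AD. The median was -0.37, against -0.11 over all genes, and 80 of 83 genes were lower, against 61.8% of all genes. Rps19, a 40S protein whose human gene is mutated in Diamond-Blackfan anaemia, had the widest gap: it lay at 2.13 in AD, 1.59 in RFR and 0.94 in CR amygdala, and between 1.34 and 2.18 in the other 2 regions. Rpl36al lay at 3.82 in AD, 3.39 in RFR and 2.68 in CR amygdala, the CR array being the lowest of the 9. These were the 2 genes past 2-fold, at -1.19 and -1.14, or 2.41% of the 83, against 3.26% of all genes past 2-fold in either direction.

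Next came Rpl29, which lay at 4.09 in AD, 3.91 in RFR and 3.17 in CR amygdala, and Rps15, a protein near the decoding site, which lay at 3.65, 3.37 and 2.77. The CR array was the lowest of all 9 for both. At the other end Rpl21 (0.18), Rpl4 (0.09) and Rpl22l1 (0.00) were not lower, and Rps23 differed by -0.01.

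For CR against AD in amygdala the scaling between arrays decided much of the median but less of the largest differences. Under quantile and cyclic loess scaling, both of which allow the correction to depend on brightness, the median of CR against AD in amygdala was -0.09 and -0.09. The difference of Rps19 remained -1.12 and -1.11 under these scalings, that of Rpl36al -0.99 and -0.97, that of Rpl29 -0.75 and -0.73 and that of Rps15 -0.72 and -0.72. The authors' deposited table, scaled by 1 constant per array, gave a median of -0.24. Rps23 went from -0.01 to 0.36 and 0.34.

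RFR amygdala differed from AD amygdala in the same direction, by a median of -0.20, with 74 of 83 genes lower against 54.2% of all genes. Rpl24 (-0.67), Rpl23 (-0.63), Rpl39 (-0.55) and Rps19 (-0.54) were furthest down, while Rpl4 (0.35) and Rpsa (0.33) were higher. CR was lower than RFR in amygdala by a median of -0.18 (66 of 83 lower, against 56.4% of all genes), most in Rpl29 (-0.73), Rpl36al (-0.71), Rps19 (-0.65) and Rpsa (-0.64). Rpl24 (0.39), Rpl17 (0.36), Rpl22l1 (0.34) and Rpl39 (0.33) were higher. These are values of the brightest probe. With the mean of all probes of a gene Rpl24 differed by only 0.07, Rpl17 by 0.23 and Rpl29 by -0.47. The 3 amygdala arrays lie on 3 different slides.

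In hypothalamus the CR array was above the RFR array, and both lie on slide 2. The median was 0.23 against 0.03 over all genes, and 73 of 82 genes were higher against 56.1% of all genes. Rpl10 (0.62), Rpl39 (0.53), Rpl35a (0.51) and Rps26 (0.51) differed most, and Rpl14 (-0.14), Rpl7l1 (-0.13), Rpl4 (-0.12) and Rps6 (-0.08, 0.02 with normexp) were on the other side. Against AD, on slide 1, CR had a median of 0.06 with 52 of 82 higher (46.2% of all genes). The genes furthest up were Rps26, a 40S protein at the messenger RNA exit (3.71 in AD, 4.00 in RFR and 4.51 in CR), Rpl10 (0.64), Rpl22l1 (0.59) and Rpl39 (0.57). Rplp1 (-0.31), Rpl36al (-0.28), Rps2 (-0.28) and Rpsa (-0.28) were furthest down.

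For RFR against AD in hypothalamus the median was -0.17, with 66 of 82 lower against 61% of all genes, but it was 0.02 under quantile scaling. Rpl41 (-0.43), Rplp1 (-0.39), Rpl37a (-0.38) and Rps2 (-0.36) were lowest. These differences depended on the scaling: under quantile scaling they were -0.22, -0.08, 0 and -0.04. Under cyclic loess scaling they were -0.21, -0.13, -0.15 and -0.14. Rps26 (0.29) and Rpl21 (0.25) were higher.

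In prefrontal cortex the diets differed little. For CR against AD the median was 0.07, with 60 of 83 higher (46.4% of all genes), led by Rpl23 (0.52), Rpl24 (0.51), Rpl22l1 (0.51) and Rpl10 (0.46). Rpl3l (-0.53), Rps2 (-0.23) and Rplp1 (-0.21) lay at the other end. For RFR against AD, both on slide 1, it was 0.07 with 62 of 81 higher (52% of all genes), led by Rpl23 (0.36) and Rpl24 (0.36). For CR against RFR it was 0.00 (-0.00323 with normexp), with 41 of 81 higher (46.5% of all genes).

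Rpl22l1 and Rpl10 were thus above AD in CR hypothalamus and CR prefrontal cortex by 0.46 to 0.64, and their CR amygdala arrays stood at 0.00 and -0.27 from AD. Counted over all 3 regions, 2 of 83 genes were higher and 19 lower in CR than in AD in each, or 2.41% and 22.9%, where 12.3% and 24.6% of all genes were. For RFR against AD 1 of 81 was higher and 16 lower in each region, against 11% and 16.5% of all genes. For CR against RFR 17 of 81 were higher and 7 lower in each region, against 21.7% and 23.4% of all genes.

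**Figure D4:**
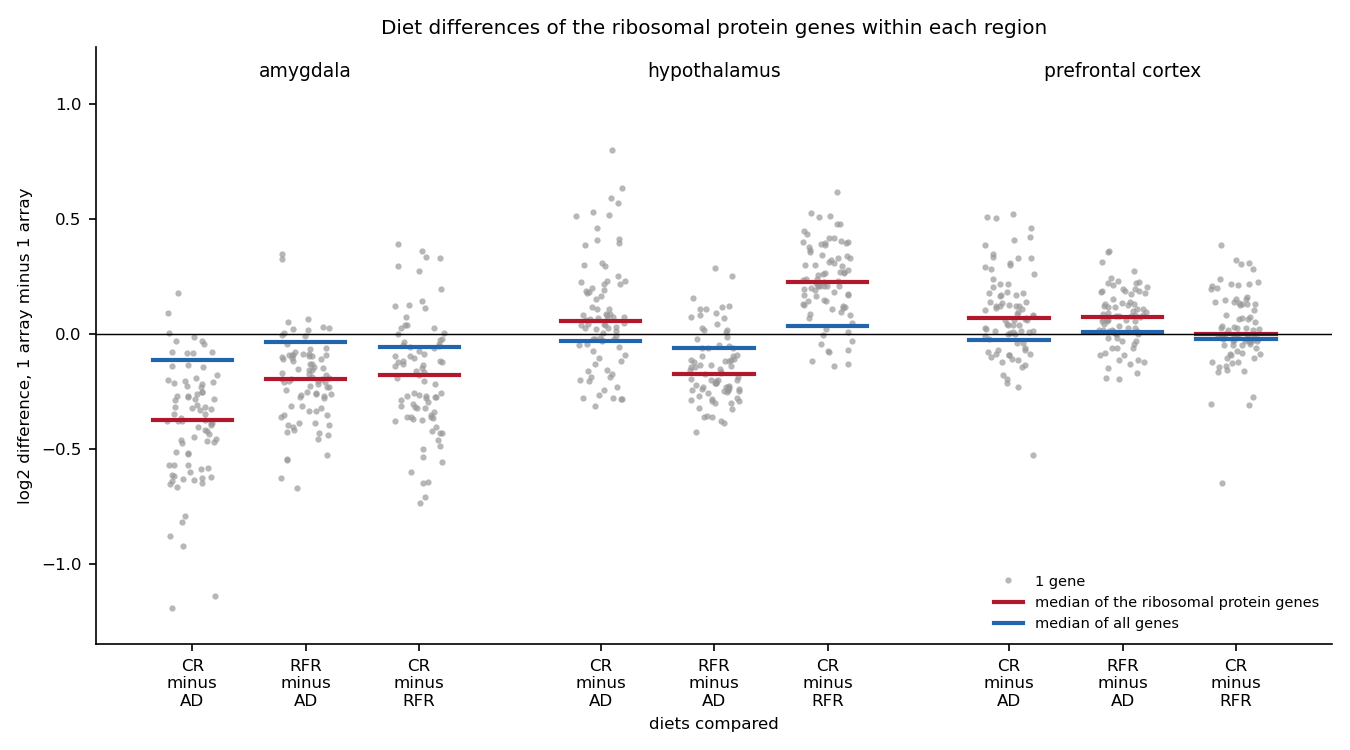
Log2 differences between 2 diets within each region (y axis), 1 array against 1 array, for the ribosomal protein genes well above background on both (grey points). Red lines are their medians and blue lines mark the medians over every gene measured. For CR minus AD in amygdala the red line is at -0.37 and the blue at -0.11, which narrowed to -0.09 and -0.05 under quantile scaling, and in hypothalamus the median of RFR minus AD changed sign under it.

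Other lists were set beside these differences. In amygdala CR against AD, 61.8% of all genes were lower, with a median of -0.11. The TOP genes outside the name rule had a median of -0.33 there (9 of 10 lower). The mitochondrial ribosomal protein genes had one of -0.25 (64 of 76 lower) and the initiation factors one of -0.20 (27 of 36 lower). In the same pair of arrays the oligodendrocyte markers had a median of 0.20 (8 of 11 higher), the neuronal markers one of 0.16 (9 of 14 higher), the astrocyte markers one of -0.06 and the microglial markers one of -0.09. Their part in the result was not tested. In hypothalamus CR against RFR, 56.1% of all genes were higher, with a median of 0.03. All 10 TOP genes were higher there, with a median of 0.20, as were 63 of 76 mitochondrial ribosomal protein genes (median 0.14). The meningeal and fibroblast markers were higher there too, by a median of 0.78 (10 of 10), with a summed signal of 90.9 in CR hypothalamus against 51.2 in RFR and 40.1 in AD. That list was lower in CR than in AD prefrontal cortex by a median of -0.61 (10 of 10), against -0.03 over all genes. The part of these markers in the ribosomal protein differences was not tested.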

How the data were processed

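Each array's scanner file holds, per the file headers, output of Agilent Feature Extraction 9.5.1.1. Its processed signal is an intensity that the software background-subtracted, and the deposited median spot and background signals are intensities too. Other deposited columns, per the file headers, are flags for spots well above background, saturated or outlying. The authors also deposited values that are a ratio to the AD array of the region. Spots flagged as outliers were dropped, the 75th percentile of each array was subtracted from log2 processed signals, and repeated spots were averaged. Of 41174 probes, 22951 matched a symbol (GRCm38.p6 table, names only).

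Genes well above background on at least 3 arrays, with a value on at least 6, were fitted with limma 3.58.1 in R 4.3.3 as region plus diet, with p adjusted (Benjamini-Hochberg) over all genes at 0.05. The fit was tested on simulated data. Diets within a region were set side by side without a test, over genes measured above background on both. Named genes are the stalk genes, Rpsa, Rps6, the paralogs and parents, the up to 8 largest called per direction in a fit, up to 4 per direction within a region, the 5 steadiest and the 5 most variable, and up to 4 genes of a list. The members, lists and tests were chosen with earlier results of these data known. Alternatives changed the background correction, scaling, source, filter, probe, variance model, slide term and arrays. The normexp alternative, with an offset of 50, was run on median spot signals. Python 3.11.15 with numpy 2.4.6, pandas 2.3.3 and matplotlib 3.10.9 was used for the rest. Single genes that are counted but not named, in the text or the figures, are not reported here.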

Additional observations from a re-analysis of the deposited data

Results flagged for a closer look

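Rpl23, a large subunit protein that binds the p53 regulator Mdm2, differed in direction between regions for CR against AD. The difference was -0.588 in amygdala, where it lay at 5.70 in AD and 5.12 in CR, 0.416 in hypothalamus and 0.524 in prefrontal cortex. The difference between regions was not tested.

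The median of the ribosomal protein genes for RFR against AD was -0.197 in amygdala and -0.172 in hypothalamus but 0.073 in prefrontal cortex. For CR against RFR it was -0.177 in amygdala, 0.229 in hypothalamus and 0.000845 in prefrontal cortex. These differences between regions were not tested, each rests on single arrays, and the RFR to AD median in hypothalamus was 0.0247 under quantile scaling.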

How the results depend on the processing

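The fit of region plus diet compared regions with diet as the block and diets with region as the block. No pairing of replicates within a region and diet was possible, because each combination has 1 array and the labels give no replicate numbers. The 31 ribosomal protein genes called between hypothalamus and prefrontal cortex became 57 under cyclic loess scaling, 51 under quantile scaling, 47 with slide as a fixed term and 51 (1 of them lower) without the CR amygdala array; leaving out a diet pool gave 9 to 18. The 11 called between amygdala and hypothalamus became 22 under cyclic loess, 20 under quantile scaling, 20 with trended and robust variances, 5 with no filter, 2 with slide as a term and 4 without the CR amygdala array, and leaving out a pool gave 0 to 8. The 2 called between amygdala and prefrontal cortex became 10 under cyclic loess, 5 under quantile scaling, 4 without the CR amygdala array, 1 with no filter, 1 with normexp and 0 with slide as a term (32 at an unadjusted p under 0.05 in limma), and leaving out a pool gave 0 to 1. For CR against AD leaving out a region gave 0 to 4, and for the other diet comparisons 0. The share of all genes called in either direction moved too. Between amygdala and hypothalamus it was 29.5% in the main fit and 19.3% with no filter. It was 22% with slide as a term, 26.2% without the CR amygdala array and 11.3% without the RFR pool. Between amygdala and prefrontal cortex it was 22.3% in the main fit, 22.6% under quantile scaling and 13.7% with no filter. For other settings it is not given. The cause of these shifts was not tested. No gene called in the region comparisons changed direction under any alternative run.

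Within regions, amygdala CR against AD (-0.374) was -0.0890 under quantile scaling, -0.0914 under cyclic loess and -0.238 in the authors' deposited table; RFR against AD (-0.197) was -0.0822, -0.0760 and -0.122; and CR against RFR (-0.177) was -0.0584 and -0.0475 under the first 2. Hypothalamus RFR against AD (-0.172) was 0.0247, -0.00515 and -0.0943 under the 3, and CR against RFR (0.229) was 0.118 and 0.103 under the first 2. In the authors' deposited table hypothalamus CR against AD was 0.172, prefrontal cortex CR against AD 0.169 and CR against RFR 0.0908. For these comparisons of CR the median of all genes moved there too, from -0.03, -0.03 and -0.02 to 0.09, 0.08 and 0.07. The authors' deposited table holds ratios within a region and gave no region comparison. No member was saturated, so leaving out saturated genes changed nothing. Signal over background limits only Rpl3l and Rpl39l among the 84 genes.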
